A study of Rattus norvegicus with 12 samples.

Results

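The response to cyclic stretch that rat aortic smooth muscle cells with and without thrombospondin-1 have in common was measured by RNA sequencing of all 12 of the 12 libraries in the study. The 6 libraries of stretched cells were set against the 6 of static cells, and every library counted once. The 4 groups have 3 libraries each. WT static and WT stretch are primary aortic smooth muscle cells of the Wistar rat with an intact Thbs1 gene. Tsp1KO static and Tsp1KO stretch are the same kind of cells after transfection with the plasmid px458, which carries Cas9, GFP and a guide against Thbs1, GFP sorting and outgrowth from single cells by limiting dilution. The number of KO clones is not given, so the KO libraries may all come from 1 clone. Cells of passages 5 to 8 were kept in medium with 20% serum, plated on coated silicone elastomer and starved of serum for 24 h. Stretched cells then received uniaxial strain of 20% at 1.0 Hz, or 60 cycles per minute, for a time that is not given. The labels do not say whether replicates were separate cultures. P-values therefore measure only how far these samples spread, and that spread may be technical.

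Vascular smooth muscle cells sense each pulse through integrins, the actin cytoskeleton, caveolae and ion channels. Known readouts of these sensors in the artery wall are the factors YAP and TAZ with TEAD, SRF with MRTF, the immediate early genes and the MAP kinase phosphatases, and the cells answer by remodelling their matrix and their contractile apparatus. Cholesterol synthesis in every cell is set by SREBP-2, which the protein INSIG holds in the endoplasmic reticulum while sterol is plentiful.

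Each gene was fitted with a term for stretch, a term for genotype and a term for library number 1, 2 or 3. Both genotypes share the terms for number, so the test was not a paired one within each genotype. Libraries of the same genotype and number are described below as 6 same-numbered pairs, 3 of WT and 3 of KO cells. An effect is the fitted log2 difference of stretch minus static with its SE, and a gene is said to have risen or fallen when edgeR's quasi-likelihood test gave a Benjamini-Hochberg adjusted p (FDR) under 0.05 over all 14825 genes tested. Levels are exon read counts scaled to library size (CPM), and unique reads are the share of a gene's exon reads that map to 1 place.

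The targeted gene was among the genes that fell. Thbs1 (ENSRNOG00000045829, chr3:109862117-109873466 in Rnor_6.0) is the gene of the matricellular protein thrombospondin-1. In WT cells it stood at 3183, 2708 and 2091 CPM in static libraries 1, 2 and 3 and at 1704, 1556 and 1052 CPM in the stretched ones. In KO cells it stood at 588, 637 and 443 CPM static and at 435, 419 and 283 CPM stretched. Every stretched library was below the static library of its pair, and every KO library still held reads of the gene, so the label goes with a lower level of the transcript and not with its loss. The pooled effect was -0.73 ± 0.067 (SE, 12 libraries, FDR 1.75e-05). Fitted by genotype it was -0.90 in WT and -0.57 in KO cells.

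Stretch changed 1967 of the 14825 genes, of which 857 rose (5.78% of genes tested) and 1110 fell (7.49%). Most changes were small. The median effect was 0.25 among rises and -0.31 among falls, 264 genes changed at least 1.5-fold (78 up, 186 down) and 65 at least 2-fold (25 up, 40 down). The same direction in all 6 pairs was seen for 1715 of the called genes (765 up, 950 down) and for 2834 of all genes tested. In 171 called genes, and in 177 of all genes tested, the 6 stretched and 6 static libraries did not overlap at all. Without the replicate block, that is without the term for library number, 449 genes were called, and all 449 were among the 1967.

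Pooling the genotypes reached genes that neither genotype reached alone. The median SE was 0.075 log2 for the pooled effect, against 0.105 for the WT effect and 0.103 for the KO effect. Of the 1967 genes, 833 were also called in WT alone, 597 in KO alone, 379 in both and 916 in neither. Another 169 genes were called in a genotype and not in the pooled fit. Of the 916, the 6 best expressed that met the limits given below for the largest changes are named. They were the cathepsin Ctsb (0.14 ± 0.037, FDR 0.0227), the integrin-to-actin linkers Tln1 (talin, -0.28 ± 0.060, FDR 0.00747) and Vcl (vinculin, -0.24 ± 0.051, FDR 0.0076), the chaperone Hsp90ab1 (0.12 ± 0.035, FDR 0.0426), the crosslinker Actn4 (-0.14 ± 0.043, FDR 0.0438) and the nonmuscle myosin Myh10 (-0.18 ± 0.051, FDR 0.0353). Each moved the same way in 6 of 6 pairs, because the limits require it. The calls of Tln1 and Vcl held whichever single library was left out, and those of Ctsb, Myh10, Actn4 and Hsp90ab1 were lost without any 1 of 4, 8, 9 and 11 libraries. All 6 calls were lost without the replicate block. Tln1 was also lost without number 3 of all groups, and Vcl without number 2 or 3.

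The library totals were 16.8 M to 38.0 M exon reads. The libraries numbered 3 had 9.15% to 11.3% of their gene reads in introns, against 14.8% to 16.5% in the others, and KO stretch 3 had 16.4% of its exon reads across exon junctions, against 28.1% to 29.8% elsewhere. In a principal component analysis the genotypes parted on component 1 (51.2% of the variance), number 3 parted from numbers 1 and 2 on component 2 (18.2%), and stretch parted from static on component 3 (5.86%). With genotype and number removed, the first component held 21.1% of what was left, and the stretched libraries lay at 9.4 to 24.8 and the static ones at -19.0 to -11.3 on it. The summed level of the 10 smooth muscle markers was 3194 to 6136 CPM, and that of 11 endothelial and 11 leukocyte markers was 32.0 to 44.8 and 26.6 to 41.8 CPM. Cldn5 was at 0 in all libraries, and Cdh5, Kdr, Tie1, Emcn and Esam of endothelium and Ptprc, Adgre1, Aif1, Cd3e and Lyz2 of leukocytes were under 1 CPM in all. Other members were higher. Of the endothelial list, Egfl7 stood at 22.8 to 34.7 CPM and Tek at 3.12 to 10.45 CPM. Of the leukocyte list, Cd14 stood at 18.9 to 31.1 CPM and Cd74 at 2.32 to 8.67 CPM. Of the tested markers, 0 of 8 endothelial, 0 of 6 leukocyte and 0 of 6 adipocyte genes were called, while 4 of 11 fibroblast markers fell (Pdgfra -0.70, Col14a1 -0.55, Cd248 -0.54, Thy1 -0.19) and 0 rose. The median of the 11 was 0.042, the highest effect was 0.51 (Dpt, FDR 0.498), and the call of Thy1 was lost without any 1 of 9 libraries. The fibroblast markers summed to 1523 to 1944 CPM in WT static, 1630 to 2413 in WT stretch, 2951 to 3553 in KO static and 2671 to 3402 CPM in KO stretch. In bulk RNA, fewer cells of a type and less RNA per cell cannot be told apart.

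Genes named as largest changes were those whose log2 CPM averaged 2 or more, with the same sign in all 6 pairs and at least 80% unique reads, which left 667 rises and 809 falls to rank. The 15 largest rises included a hyaluronan-binding protein, an integrin, a connexin and a pair of MAP kinase phosphatases. Tnfaip6 (ENSRNOG00000050792, chr3:37545238-37564699), the secreted protein TSG-6 that modifies hyaluronan, had a lowest, median and highest level of 11.1, 15.2 and 21.9 CPM static and of 35.0, 37.9 and 40.1 CPM stretched. The stretched libraries lay in a narrow band above all static ones, and the effect was 1.28 ± 0.13 (FDR 3.35e-05). Fitted by genotype it was 1.71 in WT and 0.90 in KO cells, and the genotype difference was not called (FDR 0.0862). Filip1l (ENSRNOG00000001645, chr11:45039461-45124423), a filamin-interacting protein, stood at 164, 184 and 113 CPM in WT static and 354, 353 and 261 CPM in WT stretch, and at 86.2, 88.9 and 48.0 CPM in KO static and 195, 208 and 125 CPM in KO stretch. The groups did not overlap within a genotype, and all 6 pairs rose by 0.94 to 1.38 (1.17 ± 0.060, FDR 4.79e-07).

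Adhesion and signalling genes stood beside them. Itga4 (chr3:66193059-66263960), the alpha-4 chain of the receptor for VCAM-1 and fibronectin, rose by 1.18 ± 0.18 (FDR 0.000953), from 1.17, 2.57 and 5.29 CPM (lowest, median, highest) to 2.65, 4.22 and 15.6 CPM. Its pairs ranged from 0.50 to 2.01, with the highest and the lowest both in WT cells. Gja4 (chr5:145374690-145377221), the arterial connexin 37, rose by 1.01 ± 0.097 (FDR 2.44e-05), from 3.80, 5.84 and 7.66 to 9.71, 11.2 and 13.3 CPM, with no overlap. Mcam (chr8:48472824-48481001), the adhesion molecule CD146 of smooth muscle and endothelium, rose by 1.01 ± 0.085 (FDR 1.07e-05), from 11.2, 24.9 and 40.8 to 26.6, 47.3 and 79.8 CPM. The stretched and static values of Mcam overlapped across genotypes. The transcription factor Creb5 rose by 1.10 ± 0.094 and the LIM protein Csrp2 of smooth muscle by 0.77 ± 0.12. The phosphatases Dusp8 and Dusp16, which inactivate stress-activated MAP kinases, rose by 1.01 ± 0.11 and 0.77 ± 0.081. Fitted by genotype, Csrp2 had 1.15 in WT and 0.39 in KO cells, and its genotype difference was not called (FDR 0.0862).

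The other 6 of the 15 largest rises were Sycp1 (0.86), a meiotic synaptonemal complex protein, Klhl4 (0.81), the receptor Gpr15 (0.78), Cstf2 (0.77), a cleavage factor of mRNA 3′ ends, Foxred2 (0.76) and Fsip2 (0.76). Their FDR lay between 3.74e-06 and 0.0143. Cstf2 (chrX:104882704-104909739) and the NADPH oxidase Nox1 (chrX:104909326-104932508, 0.73 ± 0.084, FDR 0.000106) have overlapping annotated spans. The strand setting of the counting is not given, so reads of the shared end cannot be told apart.

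Among the largest falls named by the same limits, Kcnd3 (ENSRNOG00000014686, chr2:207923775-208140727), the Kv4.3 channel of the transient outward potassium current, stood at 28.7, 21.6 and 16.4 CPM in WT static and 10.1, 8.93 and 4.72 CPM in WT stretch. In KO cells it stood at 5.64, 4.99 and 2.99 CPM static and 2.05, 1.27 and 0.718 CPM stretched. Within each genotype the stretched libraries lay below all static ones, and the pairs ranged from -1.90 to -1.27 (-1.62 ± 0.10, FDR 1.67e-06). The flavin monooxygenase Fmo2 (-1.55 ± 0.14) fell too. In WT cells its level was low, at 0.721 to 0.826 CPM static and 0.175 to 0.325 CPM stretched. In KO cells it stood at 10.2 to 13.8 CPM static and 4.01 to 4.36 CPM stretched. It therefore met the limit on mean level only through the KO libraries. Its static and stretched ranges overlapped across the genotypes and not within either.

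**Figure D1:**
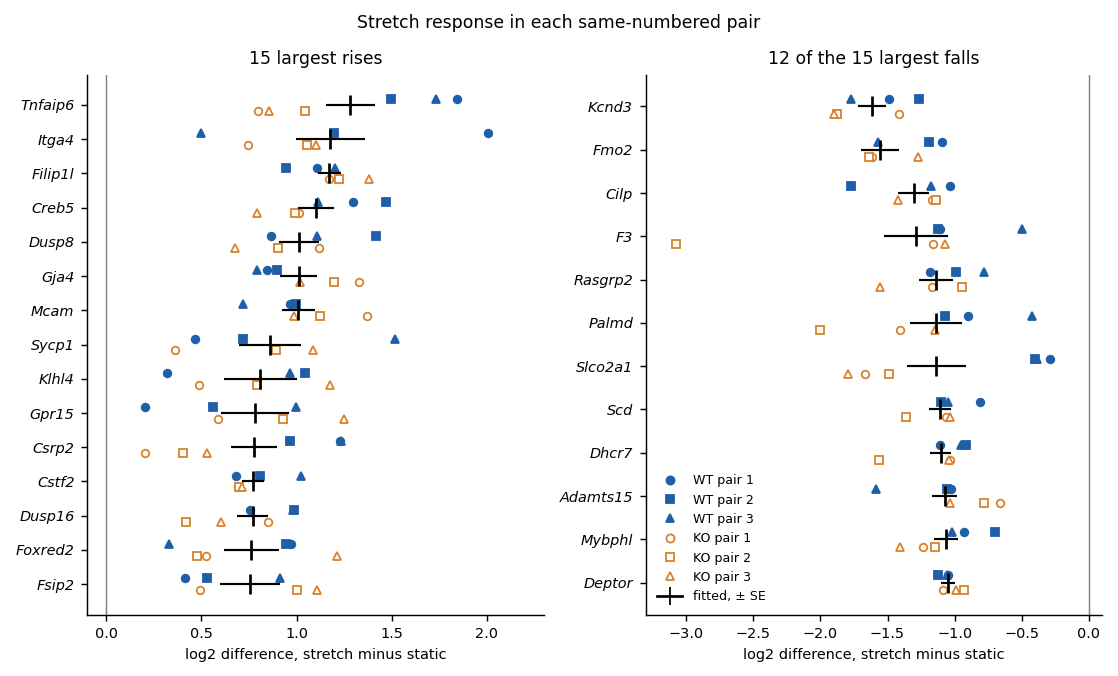
Log2 difference of stretch minus static CPM in each same-numbered pair (filled: WT, open: KO; circle, square and triangle: numbers 1, 2 and 3) for the 15 largest rises (left) and 12 of the 15 largest falls (right), with the fitted effect and its SE as black crosses. All 6 pairs of each gene lie on the same side of 0, because the genes were named by that rule, and F3 has 1 pair at -3.07 apart from the others.

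Matrix, coagulation and metabolic genes were among the other falls. Cilp (chr8:70760922-70775891), a matrix protein of cartilage and vessel wall, fell by 1.31 ± 0.12, from 4.33, 9.63 and 17.1 CPM to 1.5, 4.21 and 7.54 CPM. F3 (chr2:225310624-225322272), tissue factor, the starter of coagulation, had an effect of -1.28 ± 0.24 (FDR 0.00345), with 5 pairs between -1.16 and -0.50 and KO pair 2 at -3.07. Deptor (chr7:94795214-94995809), an inhibitor of mTOR, had the narrowest range of the 30 largest changes, with its 6 pairs at -1.12 to -0.93 (-1.05 ± 0.054, FDR 4.79e-07). Other falls were the Ras activator Rasgrp2 (-1.14), the palmdelphin gene Palmd (-1.14), the prostaglandin transporter Slco2a1 (-1.14), the protease Adamts15 (-1.07), the myosin-binding protein Mybphl (-1.07) and the lipid enzymes Scd and Dhcr7 described next. The pairs of Palmd ranged from -2.00 to -0.43. Slco2a1 had WT pairs at -0.40 to -0.29 and KO pairs at -1.79 to -1.49, and its genotype difference was not called (FDR 0.160).

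**Figure D2:**
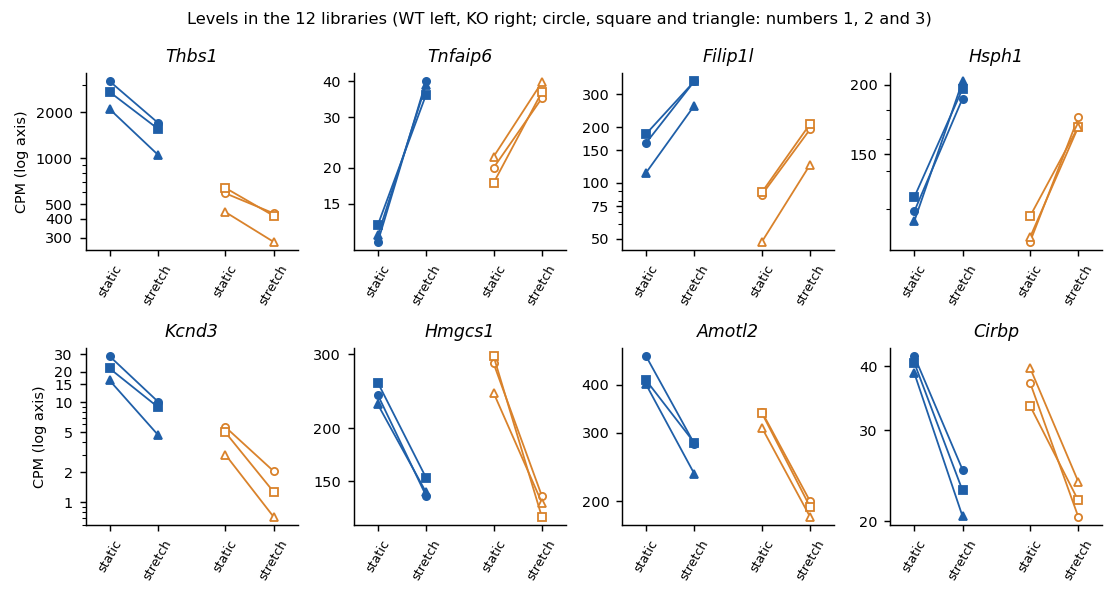
CPM (log axis) of 8 genes in the 12 libraries, with a line for each same-numbered pair (WT left in blue, KO right in orange). Thbs1, Kcnd3, Hmgcs1, Amotl2 and Cirbp fall and Tnfaip6, Filip1l and Hsph1 rise in all 6 pairs, and Thbs1 is lower in every KO library than in every WT library.

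Genes of cholesterol synthesis fell almost without exception. Of 21 members of that list, 20 fell and 0 rose, against 7.49% falls among all genes tested, and the median effect was -0.67 against 9.17e-05 over all genes. Among the steps from acetyl-CoA towards mevalonate were Acat2 (-0.91 ± 0.079) and Hmgcs1 (-0.90 ± 0.067, FDR 4.62e-06). Mvk, Mvd, Fdps and Idi1, which carry mevalonate to farnesyl diphosphate, fell by 0.66, 0.65, 0.63 and 0.69, and the squalene enzymes Fdft1, Sqle and Lss by 0.60, 0.75 and 0.73. The late enzyme Dhcr7 had -1.11 ± 0.079 (FDR 3.74e-06), from 21.8, 26.4 and 27.6 CPM static to 8.66, 12.7 and 13.9 CPM stretched. Hmgcs1 (chr2:52431601-52445055) stood at 228, 250 and 297 CPM static and 124, 139 and 153 CPM stretched. No stretched library of either gene reached the lowest static one. The weakest members were Stard4 (-0.33), Pmvk (-0.25, FDR 0.0482) and Ebp, which was not called (-0.15 ± 0.082, FDR 0.245). Only 47.0%, 55.3% and 76.7% of the reads of Hsd17b7, Lss and Acat2 mapped uniquely, so their levels are less certain. With any 1 library left out 19 or 20 members fell, and without the replicate block 18.

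Part of the regulators of sterol supply fell too. Of 11 genes of sterol uptake and SREBP control 5 fell and 0 rose, with a median of -0.22. Among them were Insig1, which retains SREBP-2 (-1.03 ± 0.068, 49.1% unique reads), SREBP-2 itself, Srebf2 (-0.44 ± 0.045), and Lpin1 (-0.33). Insig1 stood at 83.9, 93.1 and 116 CPM static and 42.1, 47.9 and 52.4 CPM stretched, and Srebf2 at 158, 189 and 199.9 CPM and then 116, 137 and 149 CPM. Neither gene overlapped between stretch and static. Srebf1 had -0.22 ± 0.079 (FDR 0.0829). Of 6 genes of cholesterol efflux 1 fell, the HDL receptor Scarb1 (-0.36 ± 0.068), and the exporter Abca1 had -0.13 ± 0.093 (FDR 0.388).

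Fatty acid synthesis followed in part. Of 12 genes 7 fell and 0 rose, with a median of -0.36, and 7 fell whichever library was left out. The desaturases led, with Scd at -1.11 ± 0.080 (from 6.19, 22.3 and 49.7 to 2.82, 11.1 and 22.0 CPM), Fads1 at -0.76 ± 0.056 and Fads2 at -0.72 ± 0.064. Acss2 (-0.42), the synthase Fasn (-0.38), Acly (-0.34) and the carboxylase Acaca (-0.28), which supply and extend the chain, fell by less. Scd overlapped between stretch and static across the genotypes, and Fads1 and Fads2 did not.

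**Figure D3:**
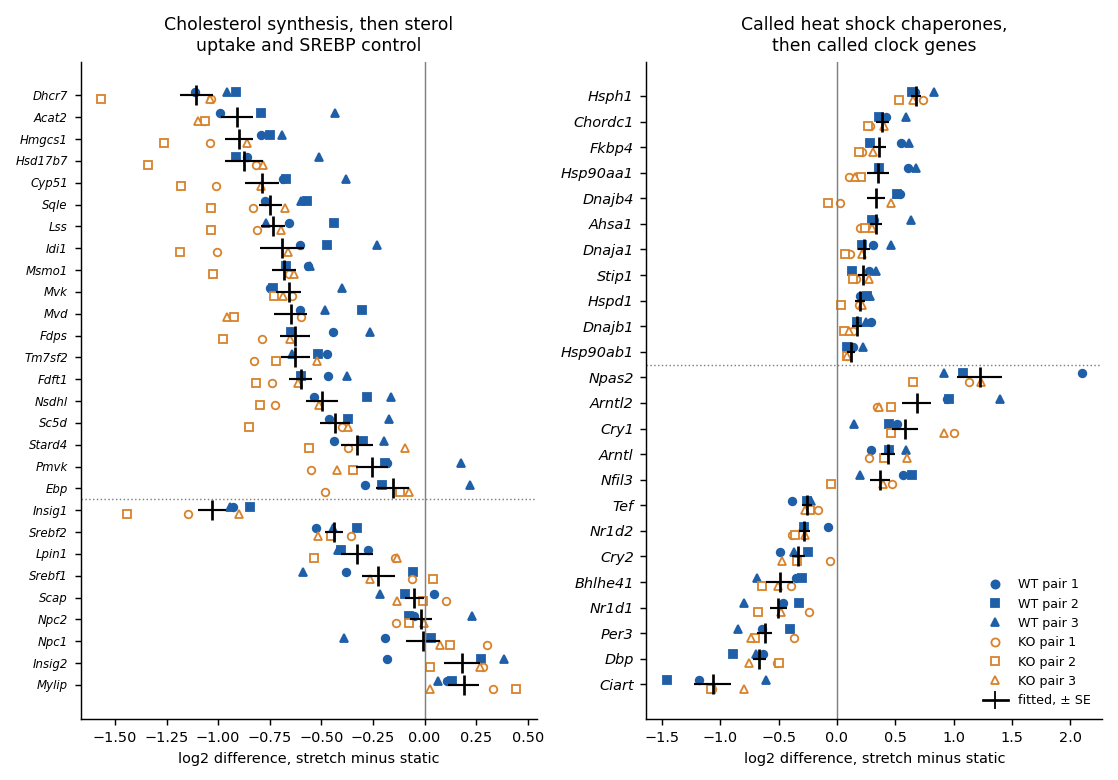
Log2 difference of stretch minus static in each same-numbered pair, with the fitted effect and its SE. Left: 19 of 21 cholesterol synthesis genes and, under the dotted line, 9 of 11 genes of sterol uptake and SREBP control. Right: the 11 heat shock chaperones and, under the dotted line, the 13 clock genes that were called. In the left panel the synthesis genes sit left of 0 in nearly all pairs, and in the right panel the chaperones sit right of 0 in nearly all pairs while the clock genes lie on both sides.

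The core of the sterol regulatory element, TCACNCCAC, was searched on both strands in RefSeq promoters (GRCr8, 250 bases before to 50 after each start). It was in 0 of 15 cholesterol synthesis promoters with an entry, 0 of 9 of sterol uptake, 0 of 9 of fatty acid synthesis and 1.129% of all 27457 promoters. This says only that these letters are not in these windows.

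Of 21 heat shock chaperones 11 rose, against 5.78% of all genes, and 0 fell, and the median effect was 0.19. Hsph1 (ENSRNOG00000000902, chr12:6322668-6341902), the nucleotide exchange factor Hsp110, had the largest effect of the called members, from 105, 115 and 126 CPM static to 168, 182 and 203 CPM stretched with no overlap (0.68 ± 0.042, FDR 1.25e-06). The HSP90 co-chaperones Chordc1 (0.39 ± 0.055), Fkbp4 (0.36 ± 0.056), Ahsa1 (0.33 ± 0.052) and Stip1 (0.22 ± 0.040) rose, as did the HSP40 genes Dnajb4 (0.33), Dnaja1 (0.23) and Dnajb1 (0.17) and the mitochondrial Hspd1 (0.20). Hsp90aa1 (0.35, 7.02% unique reads) and Hsp90ab1 (0.12) were lost without any 1 of 7 and of 11 libraries. Not called were the small heat shock protein Hspb1 (0.14, FDR 0.0897), the factor Hsf1 (0.19, FDR 0.0532) and Hspa8 (0.83 ± 0.33, FDR 0.120, 4.34% unique reads). Fitted by genotype, 10 rose in WT and 2 in KO cells. Without WT static 1 the pooled count was 7, without the replicate block 2, and without number 1, 2 or 3 it was 4, 6 or 8.

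The core of the heat shock element, TTCNNGAA, which reads the same on both strands, was in 7 of 17 chaperone promoters (41.18%), 5 of them among the 9 called members with an entry, and in 8.486% of all promoters and 6.724% of those of 11021 tested genes. Of the called members that hold it, the 3 with the largest effects are shown, since these letters recur there at different places, with the element in capitals. The Hsph1 promoter (GRCr8, chr12:10427118-10427367, plus strand, 250 bases up to the start) holds it 105 and 36 bases before the start. For Chordc1 (chr8:23650830-23650859, plus strand) and Dnaja1 (chr5:60638407-60638436, plus strand) the 30 bases around the match are given, which lies 15 and 25 bases after the start of Chordc1 and 14 after that of Dnaja1.
Hsph1: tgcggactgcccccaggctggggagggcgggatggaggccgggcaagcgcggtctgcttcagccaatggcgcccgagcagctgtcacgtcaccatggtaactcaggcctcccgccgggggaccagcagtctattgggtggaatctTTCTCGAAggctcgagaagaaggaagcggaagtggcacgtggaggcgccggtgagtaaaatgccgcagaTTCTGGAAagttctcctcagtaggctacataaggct
Chordc1: ggaacgTTCGGGAAgaTTCCTGAAgcagta
Dnaja1: cgggcggaactTTCCAGAAcgctcggtggg

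Of 19 unfolded protein response genes 4 rose, the ER chaperone Hspa5 (0.27 ± 0.038, FDR 0.000431), Dnajc3 (0.23), Dnajb9 (0.23) and Xbp1 (0.14), and 0 fell. Hspa5 and Dnajc3 held their call without any single library, and the count was 2 without any 1 of WT static 1 or 3, WT stretch 1 or 3, KO static 2 or 3, or KO stretch 1, 2 or 3. The integrated stress response had 2 rises and 3 falls of 18, with Trib3, a pseudokinase it induces, down (-0.48 ± 0.058) and Atf4 up by 0.14 (lost without any 1 of 7 libraries). Its falls numbered 1 without WT static 1, WT stretch 3, KO static 2 or 3, or KO stretch 1 or 3.

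NRF2 targets, the enzymes of the oxidant response, mostly fell. Of 14 members 8 fell and 1 rose (Prdx1, 0.17), with a median of -0.20. The falls numbered 6 to 9 with 1 library left out, 4 without number 1 or number 2, and 3 without the replicate block. Haem oxygenase Hmox1 went from 75.8, 81.5 and 109 CPM to 52.2, 59.0 and 73.0 CPM without overlap (-0.51 ± 0.062, FDR 0.000154). The quinone reductase Nqo1 (-0.39 ± 0.064), the glutathione ligase Gclc (-0.37 ± 0.041) and thioredoxin reductase Txnrd1 (-0.35 ± 0.038) fell in 6 of 6 pairs each. Of 21 oxidases and antioxidant enzymes 3 rose, Nox1, Sod1 (0.21) and Prdx3 (0.14, lost without any 1 of 10 libraries). Of 18 p53 targets 5 rose, led by Btg2 (0.44 ± 0.072), and 2 fell, Fas and Sesn2 (lost without any 1 of 7 libraries), with 3 rises without WT static 1 or 2, WT stretch 2 or KO stretch 1.

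Of 24 immediate early genes 6 fell, 4 rose and 14 were not called. The falls held the synaptic gene Arc (-1.09 ± 0.20), the zinc-finger factors Egr2 (-0.87 ± 0.15), Egr3 (-0.75 ± 0.15) and Egr1 (-0.73 ± 0.076), and the Krueppel-like factors Klf2 (-0.83 ± 0.12) and Klf4 (-0.49 ± 0.061). Levels of Egr2 went from 1.54, 4.56 and 9.68 to 0.70, 2.55 and 5.74 CPM and those of Klf2 from 5.22, 8.23 and 12.0 to 3.17, 4.53 and 6.29 CPM. Stretch and static overlapped across the genotypes for both genes, and within each genotype they did not. The rises were the AP-1 members Jund (0.58 ± 0.050) and Jun (0.51 ± 0.053), Ier3 (0.45 ± 0.070) and Btg2. Fos had 0.08 ± 0.19 (FDR 0.840), Fosb -0.16 ± 0.16 (FDR 0.566), Myc 0.06 ± 0.058 (FDR 0.534) and Atf3 0.63 ± 0.26 (FDR 0.132). The EGR site GCGGGGGCG, searched on both strands, was in 3 of 15 promoters of the list, none of them of a called gene. It was in 2.783% of all promoters and 5.154% of those of tested genes.

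Of 16 genes of MAP kinase feedback 4 rose and 2 fell, and all 6 encode phosphatases. Beside Dusp8 and Dusp16, Dusp1 went from 26.5, 37.0 and 43.7 to 48.7, 59.5 and 66.0 CPM without overlap (0.69 ± 0.060, FDR 1.28e-05), and Dusp10 rose by 0.20. Dusp8, Dusp16, Dusp1 and Dusp10 act mainly or in part on JNK and p38. The falls were Dusp5 (-0.40, lost without any 1 of 9 libraries) and Dusp7 (-0.26), which act on ERK.

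Several targets of YAP and TAZ fell. Of 21 members 8 fell and 1 rose (Dock5, 0.19), with a median of -0.21, and 8 to 10 fell when 1 library was left out and 5 without the replicate block. Amotl2 (ENSRNOG00000008487, chr8:111209908-111226226), an angiomotin that binds YAP, stood at 310, 370 and 474 CPM static and 182, 217 and 283 CPM stretched, without overlap (-0.73 ± 0.044, FDR 1.15e-06). F3, Crim1 (-0.60 ± 0.075), Asap1 (-0.56 ± 0.054), Tead1 (-0.45 ± 0.071), the matricellular Ccn1 (-0.41 ± 0.092, FDR 0.0103), the kinase Nuak2 (-0.38 ± 0.067) and Arhgef17 (-0.30) fell as well. The much used targets Ccn2 and Ankrd1 had 0.14 ± 0.058 (FDR 0.151) and -0.02 ± 0.091 (FDR 0.915), so the list did not move as 1 block. Among 26 components of the Hippo pathway, which restrains YAP, 8 fell and 2 rose (Stk38l 0.65 ± 0.071 and Tead2 0.16). Stk38l, an NDR kinase, went from 29.5, 30.8 and 32.5 to 40.3 CPM at the lowest and 56.1 CPM at the highest with no overlap, and the scaffold Wwc1 (-0.64 ± 0.066) and the factors Tead1 and Tead4 (-0.43) were among the falls.

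The TEAD site GGAATG, searched on both strands, was in 6 of 13 promoters of YAP/TAZ targets (46.15%), in 3 of the 4 called members with an entry, and in 13.88% of all promoters and 11.18% of those of tested genes. The Amotl2 promoter (GRCr8, chr8:112182376-112182625, plus strand, 250 bases up to the start) is shown because this gene had the largest effect among the called members that hold the site. The site, in capitals on the reverse strand as CATTCC, lies 76 bases before the start.
Amotl2: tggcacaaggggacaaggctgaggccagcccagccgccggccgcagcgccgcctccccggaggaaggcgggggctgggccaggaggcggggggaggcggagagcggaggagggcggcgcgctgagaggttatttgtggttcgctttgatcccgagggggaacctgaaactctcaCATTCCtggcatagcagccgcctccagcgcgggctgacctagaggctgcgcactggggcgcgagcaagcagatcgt

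Of 19 circadian clock genes 5 rose and 8 fell, and both counts were the same whichever 1 library was left out. The rises were the activators Npas2 (1.22 ± 0.20, FDR 0.00123), Arntl2 (0.68 ± 0.12) and Arntl (0.44 ± 0.062), the repressor Cry1 (0.58 ± 0.11) and Nfil3 (0.37). The falls were Ciart (-1.07 ± 0.16), the output factors Dbp (-0.67 ± 0.054) and Tef (-0.26), Per3 (-0.62 ± 0.062), the nuclear receptors Nr1d1 (-0.50 ± 0.070) and Nr1d2 (-0.28), which repress Arntl, Bhlhe41 (-0.49) and Cry2 (-0.33). Npas2 (chr9:45901741-46081880) went from 1.46, 1.88 and 3.00 CPM to 2.84, 5.03 and 6.75 CPM, and Dbp from 35.6, 47.1 and 69.2 to 20.2, 31.1 and 41.0 CPM. Ciart (chr2:197987705-197991574), a repressor of the activator pair, touched but did not cross between static (3.37, 4.48 and 5.93 CPM) and stretch (1.39, 2.09 and 3.37 CPM). Per1, Per2 and Clock had -0.06, 0.05 and 0.08 and were not called (FDR 0.666, 0.765 and 0.519). The time of day of the harvests is not given, so a stretch effect and a difference in clock phase cannot be told apart.

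The E-box CACGTG, which the activator pair binds and which reads the same on both strands, was in 4 of 17 clock promoters (23.53%), 3 of them among the 12 called members with an entry, and in 6.65% of all promoters and 9.146% of those of tested genes. Ciart, which had the largest effect among the called members that hold the E-box, is shown (GRCr8, chr2:186112247-186112496, minus strand, 250 bases up to the start). It held 3 copies, 93, 35 and 21 bases before its start, each in capitals.
Ciart: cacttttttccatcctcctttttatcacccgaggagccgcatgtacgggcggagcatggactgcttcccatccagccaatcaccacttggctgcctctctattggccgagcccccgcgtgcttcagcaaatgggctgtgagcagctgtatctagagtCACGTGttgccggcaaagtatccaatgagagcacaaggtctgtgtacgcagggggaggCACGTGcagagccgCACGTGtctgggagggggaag

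Among cold-inducible RNA-binding proteins Cirbp (chr7:12401207-12405022) fell, from 33.5, 39.2 and 41.8 CPM to 20.4, 22.4 and 25.2 CPM without overlap (-0.78 ± 0.066, FDR 1.09e-05). Of 8 members 4 fell and 1 rose, the splicing kinase Clk1 (0.24). Rbm3 (-0.17), Rbmx (-0.15) and Srsf5 (-0.12) had small effects, and 2 members fell without WT static 2, WT stretch 2, KO static 3 or KO stretch 1 or 2. The call of Rbm3 was lost without any 1 of 5 libraries. Culture temperature is not given.

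Of 24 genes of the contractile apparatus 1 rose, Csrp2 (4.17%, against 5.78% of all genes tested). Another 4 fell (16.7%, against 7.49%), among them Pln, Mylk (-0.45) and Lmod1 (-0.27). The falls numbered 1 or 2 without WT static 1, WT stretch 2, KO static 1 or 2, or KO stretch 1 or 2. Calponin Cnn1 had 0.37 ± 0.12 (FDR 0.0672), with 0.75 in WT and -0.02 in KO cells, and smooth muscle actin Acta2 had -0.19 ± 0.088 (FDR 0.178), with 0.07 and -0.46. Myh11, Tagln and Smtn had -0.18, 0.09 and -0.12 and were not called. In WT cells alone 3 members rose and 1 fell, and in KO cells alone 1 rose and 8 fell, but the difference between the genotypes was called for none of them. The phospholamban gene Pln had -1.12 ± 0.28, with 16.1% unique reads, and is uncertain. Fitted by genotype it had -1.83 in WT and -0.11 in KO cells, with an FDR of 0.0981 for the difference. The calls of Pln, Lmod1 and Mylk were lost without any 1 of 5, 8 and 9 libraries. Among 17 genes of SRF and MRTF, 2 rose (Csrp1 0.27 and Pdlim7 0.22) and 3 fell (Fhl2 -0.53 ± 0.049, Vcl and Actb -0.17), with 5 and 6 falls without WT static 3 and WT stretch 1. The call of Csrp1 was lost without WT static 1 (FDR 0.0520). Of 17 smooth muscle identity factors 3 fell, Klf4, Mef2c (-0.39 ± 0.050) and Foxo1 (-0.25, lost without any 1 of 8 libraries), and 0 rose.

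Integrin chains for laminin and collagen were among the adhesion genes that fell. Of 17 integrins 1 rose, Itga4 (5.88%, against 5.78% of all genes tested). The 4 that fell (23.5%, against 7.49%) were Itga3 (-0.79 ± 0.067), Itga1 (-0.45 ± 0.059), Itga7 (-0.35 ± 0.056) and Itga11 (-0.32). Itga3, a laminin-receptor chain, stood at 23.9, 49.9 and 88.3 CPM static and at 12.4, 31.6 and 49.9 CPM stretched. The fibronectin-receptor chains Itga5 and Itgb1 had 0.06 ± 0.065 and 0.01 ± 0.037 and were not called. Of 32 actin and focal adhesion genes 3 rose and 6 fell. Focal adhesion kinase Ptk2 went from 105, 117 and 135 to 149, 164 and 199 CPM without overlap (0.49 ± 0.045, FDR 1.83e-05), Actn1 rose by 0.24, and Lims2 (-0.65 ± 0.10, 60.2% unique reads), Tln1, Vcl, Tns3 (-0.24), Actn4 and Parva (-0.13) fell. Of 17 cell-cell adhesion genes 3 rose and 3 fell. Connexin 43, Gja1, went from 671, 734 and 750 to 862, 958 and 978 CPM without overlap (0.38 ± 0.041), beside Gja4 and Mcam, and Alcam fell by 0.27.

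Of 10 caveolar genes 8 fell and 0 rose, with a median of -0.24. The muscle-type Cav3 (-0.84 ± 0.18) and Cavin4 (-0.67 ± 0.10) led, followed by Cavin2 (-0.30 ± 0.049), Cavin1 (-0.24 ± 0.035), Cav2 (-0.24), Pacsin2 (-0.23), Ehd2 (-0.14) and Cav1 (-0.13, FDR 0.0450). Cavin1, the abundant coat protein, went from 1275, 1428 and 1688 to 1084, 1208 and 1400.0 CPM, a range that overlaps although its 6 pairs lay at -0.27 to -0.20. The count was 5 without WT static 2, WT stretch 1, 2 or 3, KO static 2 or KO stretch 1 or 2, and 4 without the replicate block.

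Of 26 ion channels and mechanosensors 2 rose (7.69%, against 5.78% of all genes tested) and 5 fell (19.2%, against 7.49%). The mechanosensitive channel Piezo2 rose by 0.41 ± 0.071 and the polycystin Pkd2 by 0.36 ± 0.041, while Piezo1 had -0.15 ± 0.066 (FDR 0.17). The calcium channels Itpr1 (-0.48 ± 0.055) and Itpr3 (-0.35), the osmosensitive Trpv2 (-0.44 ± 0.086), Kcnq5 (-0.24) and the calcium store sensor Stim1 (-0.24) fell, with 3 falls without WT static 1 or 3, WT stretch 1 or 2, or KO static 2. Of 20 vasoactive receptors and RGS genes 5 fell, with the natriuretic peptide clearance receptor Npr3 going from 55.9, 150 and 276 to 28.2, 86.8 and 176 CPM (-0.77 ± 0.056, FDR 3.74e-06). The angiotensin receptor Agtr1a fell by 0.76 ± 0.061 and the endothelin receptor Ednra by 0.31, and 3 fell without WT static 1 or KO static 2. Rgs4 rose by 0.44, a call lost without WT static 1, WT static 3 or WT stretch 1.

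Matrix genes moved in both directions. No collagen rose, and 4 of 19 fell, Col14a1 (-0.55 ± 0.076), Col11a1 (-0.44 ± 0.0595), Col8a1 (-0.32 ± 0.048) and Col8a2 (-0.41, lost without any 1 of 10 libraries), while the main fibrillar genes Col1a1 and Col3a1 had -0.11 ± 0.078 and -0.05 ± 0.061 and were not called. Without the replicate block 0 collagens fell. Of 24 elastic fibre and crosslinking genes 5 rose and 3 fell. The lysyl oxidase Loxl1 went from 184, 300 and 470 to 299, 412 and 574 CPM (0.53 ± 0.072), and Fbln2 (0.35), Loxl2 (0.33), Fbln1 (0.29) and elastin, Eln (0.28 ± 0.073, FDR 0.0256), rose, while Tgm2 (-0.55), Loxl4 (-0.46) and Ltbp1 (-0.22) fell. The rises numbered 3 without WT static 1, WT stretch 2 or KO static 2. Of 19 matricellular genes periostin, Postn (0.53 ± 0.050, from 868, 1543 and 2678 to 1152, 2299 and 3628 CPM), and tenascin-C, Tnc (0.50 ± 0.075), rose, and Cilp, Thbs1 and Ccn1 fell.

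Genes of the hyaluronan coat were among the rises, as was Tnfaip6, which transfers proteins onto hyaluronan. The synthase Has2 (0.62 ± 0.14), the receptor Cd44 (0.27) and the binding proteoglycan Vcan (0.22) rose, and the hyaluronidase Hyal1 (-0.39), Fmod (-0.45) and Acan (-0.19) fell, so 5 of 24 members rose and 3 fell. The fifth rise, Aspn, had 0% unique reads and is uncertain. The median over the list was 0.00493, and it changed sign under upper-quartile or total scaling. Of 30 proteases and inhibitors 6 rose, among them Adamts4 (0.52 ± 0.11), Adam9 (0.38 ± 0.044), Adam12 (0.34) and Timp1 (0.31), and 3 fell, Adamts15, Adamts5 (-0.45, lost without any 1 of 7 libraries) and Timp3 (-0.33, 39.6% unique reads). Of 13 coagulation and fibrinolysis genes the clot starter F3, the anticoagulant thrombomodulin Thbd (-0.75 ± 0.10) and Gas6 (-0.25) fell, and the plasminogen activator Plat (0.49 ± 0.041, 64.5% unique reads), S100a10 (0.32) and Plaur (0.31), which bind or localise plasmin activity, rose.

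**Figure D4:**
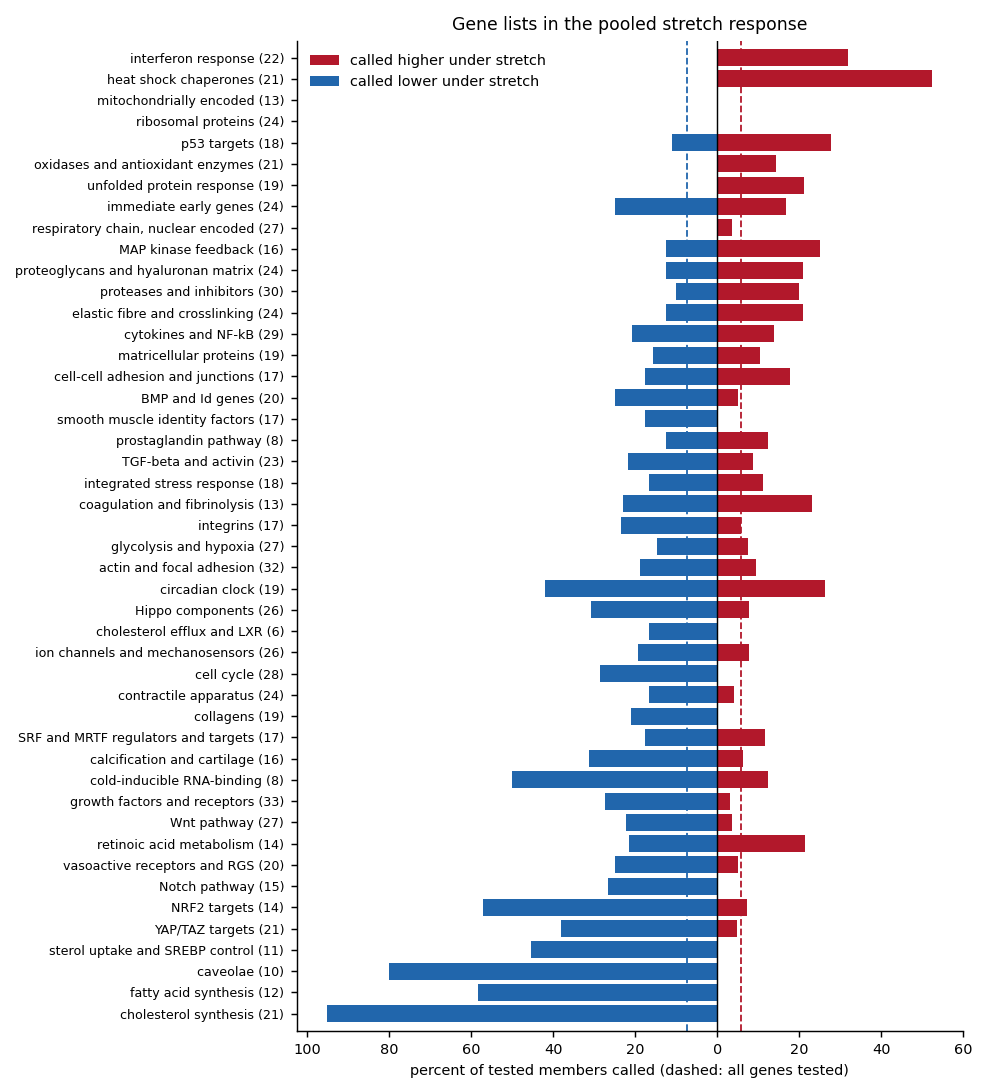
Percent of tested members (number in brackets) called higher (red, right) or lower (blue, left) under stretch in 46 gene lists, ordered by median effect, with dashed lines at the 5.78% of all genes tested that rose and the 7.49% that fell. Cholesterol synthesis, caveolae and fatty acid synthesis reach furthest to the left and heat shock chaperones furthest to the right.

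Several growth factor receptors and ligands fell. Of 33 growth factors and receptors 9 fell and 1 rose (Hbegf, 0.26). The receptors Pdgfra (-0.70 ± 0.069, from 27.5, 41.9 and 59.1 to 16.1, 24.6 and 41.1 CPM), Fgfr2 (-0.61 ± 0.050), Igf1r (-0.33) and Met (-0.28) fell, and so did the ligands Vegfd (-0.58), Ereg (-0.57) and Fgf7 (-0.57, lost without KO static 2, 57.0% unique reads) and the binding proteins Igfbp2 (-0.46) and Igfbp4 (-0.38). Of 28 cell cycle genes 8 fell and 0 rose. Cyclin D1, Ccnd1, went from 371, 470 and 551 to 231, 347 and 411 CPM (-0.52 ± 0.058, FDR 7.8e-05), Plk1 fell by 0.27, and 5 fell without WT stretch 2, KO static 2 or KO stretch 1 or 2. Of 23 TGF-beta and activin genes 5 fell (21.7%, against 7.49% of all genes tested), among them the receptor Tgfbr2 (-0.45 ± 0.042), the ligand Tgfb3 (-0.34) and the mediator Smad3 (-0.34). The 2 that rose (8.70%, against 5.78%) were Fstl3 (0.51) and the feedback inhibitor Pmepa1 (0.46 ± 0.061). Of 20 BMP and Id genes 5 fell, among them Bmp2 (-0.84), Bmp4 (-0.53 ± 0.047), Id4 (-0.53) and Smad6 (-0.41), and 1 rose, with Bmp2 lost without any 1 of 4 libraries. Of 15 Notch genes 4 fell, the ligand Jag1 (-0.48 ± 0.059), the smooth muscle receptor Notch3 (-0.47 ± 0.066) and the targets Nrarp (-0.50) and Hes1 (-0.28), and 0 rose. Of 27 Wnt genes 6 fell, led by Nkd2 (-0.41), Tcf7l2 (-0.39) and Fzd1 (-0.38), and the secreted antagonist Sfrp4 rose (0.58 ± 0.088).

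Among 29 cytokine and NF-kB genes 6 fell and 4 rose. The inflammasome sensor Nlrp3 went from 6.49, 7.57 and 10.2 to 2.69, 4.73 and 5.61 CPM without overlap (-0.83 ± 0.17), and Icam1 (-0.57 ± 0.063), the chemokine Cxcl12 (-0.50 ± 0.047), Csf1 (-0.35), Vcam1 (-0.28) and Cxcl1 (-0.27) fell. The IL-33 receptor Il1rl1 went from 38.0, 101 and 200 to 65.8, 171 and 318 CPM (0.76 ± 0.064, FDR 1.07e-05), and Ptgs2 (0.39), Cxcl16 (0.33) and Ccl2 (0.20) rose. Of 22 interferon response genes 7 rose and 0 fell, with a median of 0.22. Gbp2 (0.37 ± 0.073), Parp9 (0.32), Dtx3l (0.28) and Irf9 (0.25) were among them, and 4 rose without WT stretch 2, KO static 2 or KO stretch 1. The calls of Isg15 (0.36) and Oas1a (0.43) were lost without any 1 of 7 and of 9 libraries, and 1 gene of the list was called without the replicate block.

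The remaining lists differed in their share of calls, against 5.78% rises and 7.49% falls among all genes tested. Retinoic acid genes had 21.4% rises and 21.4% falls, and calcification and cartilage genes had 6.25% rises and 31.25% falls. Of 14 retinoic acid genes 3 rose and 3 fell, and the rises were 0 without WT static 2 or 3 and 1 without WT stretch 2, KO static 3 or KO stretch 3, while 1 fell without KO static 3. Of 27 glycolysis and hypoxia genes 2 rose, led by the oxygen sensor Egln3 (0.62 ± 0.085), and 4 fell, led by carbonic anhydrase Car9 (-0.46 ± 0.045). The falls were 1 without WT static 1, WT stretch 2 or KO static 3, and 2 without WT static 3, WT stretch 1 or 3, KO static 2 or KO stretch 1 or 3. Of 16 calcification and cartilage genes 5 fell and 1 rose, Enpp1 (0.24 ± 0.044), which makes the mineral inhibitor pyrophosphate. With 1 library left out 1 to 4 of them fell, and every library but WT static 2 and KO stretch 2 moved that count by more than 1.5 times. Of 8 prostaglandin genes Ptgs2 rose and Slco2a1 fell, of 27 nuclear genes of the respiratory chain 1 rose (Sdhb, 0.19, lost without any 1 of 8 libraries), and of 8 epithelial and mesothelial markers 1 fell, Upk3b (-0.86 ± 0.16, from a median of 4.08 to 2.32 CPM). No ribosomal protein gene (0 of 24) and no mitochondrially encoded gene (0 of 13) was called, with medians of 0.12 and 0.18.

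The response differed between the genotypes for few genes. Fitted by genotype, as 4 group means beside the term for library number, 944 genes were called in WT (6.37%; 404 up, 540 down) and 656 in KO cells (4.42%; 209 up, 447 down), which share no control libraries. The difference of the effects was called for 2 genes (0.0135% of those tested), with 921 at an unadjusted p under 0.05 and 48 called by DESeq2. Aldh1a3, an enzyme that makes retinoic acid, stood at 16.6, 15.8 and 14.5 CPM in WT static and 39.6, 41.3 and 32.9 CPM in WT stretch, and at 32.6, 26.4 and 25.2 CPM in KO static and 33.0, 32.0 and 26.9 CPM in KO stretch. The WT groups did not overlap and the KO groups did, with effects of 1.28 and 0.13, a difference of -1.15 (FDR 0.00357). Its pooled effect of 0.68 ± 0.17 (FDR 0.0181) therefore averages unlike responses, and was lost without WT static 1, 2 or 3. Vegfc, a growth factor of lymphatic vessels, stood at 119, 111 and 123 CPM in WT static and 80.5, 77.4 and 79.9 CPM in WT stretch, and at 29.1, 31.6 and 35.7 CPM in KO static and 34.2, 37.1 and 37.4 CPM in KO stretch. Its effects were -0.57 and 0.17, a difference of 0.74 (FDR 0.0353), and its pooled effect of -0.22 ± 0.11 was not called (FDR 0.229). A difference that misses the threshold does not show that the genotypes respond alike.

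Intron reads, which come in part from unspliced RNA, gave another reading of the same libraries. Of 15577 genes tested on intron reads, 80 rose (0.514%) and 109 fell (0.7%). With the scaling factors of the exon reads in place of those of the intron reads the counts were 16 and 54, a shift of the balance from 42.3% to 22.9% rises. Among the genes that rose on exon reads, 836 had an intron test, 681 of them had a positive intron effect, and 47 were called in the same and 0 in the opposite direction. Among those that fell, 1082 had one, 935 had a negative effect, and 88 were called in the same and 1 in the opposite direction. Over all 13425 genes tested on both, 8396 effects had the same sign. The readings share libraries and are not independent.

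Several leading genes moved on introns by about as much as on exons. Intron effects were 1.12 ± 0.14 for Tnfaip6, 1.13 for Filip1l (FDR 3.46e-06), -0.99 for Hmgcs1 (FDR 0.000323), -0.72 for Amotl2 (FDR 0.000937) and 0.63 for Ptk2 (FDR 0.000323). Of 21 cholesterol synthesis genes 11 fell on intron reads and 0 rose, with a median of -0.55. Postn had a larger intron effect, 1.15, than its exon effect of 0.53. Kcnd3 and Dusp8 had intron effects of -0.33 and 0.08 that were not called (FDR 0.338 and 0.959), and of 20 heat shock chaperones tested on introns 0 were called.

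**Figure D5:**
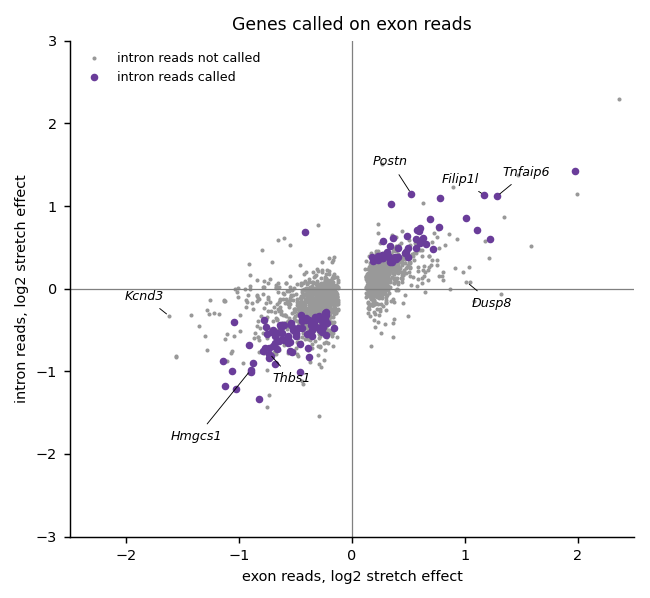
Fitted log2 stretch effect on exon reads (x axis) and on intron reads (y axis) for 1916 genes called on exon reads and tested on both; 2 more lie outside the axes. Purple points were also called on intron reads, and most points lie in the lower left and upper right. Hmgcs1 and Tnfaip6 lie near the diagonal, and Kcnd3 and Dusp8 near the horizontal line at 0.

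Library number 3 and transcript length were looked at because the libraries numbered 3 stood apart. The difference between the stretch effect in number 3 and its mean in numbers 1 and 2 was called by edgeR for 0 genes (0%), with 1023 at an unadjusted p under 0.05 and 13 called by DESeq2. Across the 14825 genes, Spearman's rho of the pooled effect with exon length was -0.145, a description over genes that share libraries. In the WT pairs numbered 1, 2 and 3 it was -0.153, 0.0927 and -0.294, and in the KO pairs 0.0847, 0.00672 and -0.180, so it was not of 1 sign. The median effect was 0.0471 in the 3707 genes of shortest exon length (200 rises, 131 falls) and -0.0311 in the 3706 of longest (178 rises, 407 falls). With the length trend of each library removed 2298 genes were called, 1917 of them among the 1967, and of 186 called genes that are named by rule 4 lost their call, among them Lmod1, Myh10 and Mylk. The part of RNA quality in these effects was not tested.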

How the data were processed

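RNA was extracted with TRIZOL, and libraries were made from 500 ng of total RNA by poly(A) selection with a directional kit and sequenced in pairs of 36 bases, per the labels' protocols. Reads were mapped to the rat genome Rnor_6.0 with the CLC workbench, per the submitters' processing notes. The deposited tables give whole-number counts of total exon, unique exon, exon junction and intron reads per gene and library for 22081 genes, and the authors did not normalize these counts. Whether the counting used strand is not given in the sources used here. Poly(A) selection and gene length can shift counts where RNA is broken.

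Total exon counts were tested with edgeR 4.0.16 (R 4.3.3, limma 3.58.1) with TMM scaling and filterByExpr at a minimum count of 10, which kept 14825 genes. The model had terms for library number, genotype and stretch and 7 residual degrees of freedom. The genotype effects and their difference came from 4 group means with the same block, with 6. P-values were adjusted by Benjamini-Hochberg over all genes tested. CPM used TMM library sizes, a prior count of 3 entered the log2 CPM of pair differences, and SE is the effect divided by the square root of F. Intron counts were tested in the same way on 15577 genes. Total exon reads were 16.8 M to 38.0 M per library.

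The numbers 1 to 3 come from the sample titles and were used as a block. Deviations from group means were correlated between libraries of different groups. For same-numbered libraries the correlations were 0.181 to 0.261 for number 1, 0.135 to 0.280 for number 2 and 0.432 to 0.581 for number 3 (6 pairs each). For the 36 pairs of different numbers they were -0.427 to 0.308. Only number 3 lay above that range, so these values do not show that numbers 1 and 2 pair the libraries.

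The members and the 52 gene lists were chosen with earlier results of these data known. Named genes are Thbs1, the 15 largest rises and falls under the limits given with them, up to 4 called members of each list by size (or the 2 of highest level where none was called), the genes with a called genotype difference, and the 6 of highest level called in the pooled fit alone. Those 6 had to meet the same limits as the largest rises and falls. Other list members are named to complete a count, or were chosen after their values were seen, as were the promoters shown. Promoters came from RefSeq (GRCr8), matched by symbol. Alternatives were other scalings, DESeq2 1.42.0 and limma-voom, other filters, unique reads, a length trend removed, no block, and leaving out libraries or numbers. Results of some genes are not reported here.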

Additional observations from a re-analysis of the deposited data

Results flagged for a closer look

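The 6 same-numbered pairs of each named gene were searched for 1 pair that lay far from the other 5, and 15 of 197 genes had one, where chance gives about 1 in 20. Of these, 14 are given here. In WT pair 3, Cstf2 lay at 1.02 (the others at 0.68 to 0.81), Sod1 at 0.51 (0.09 to 0.20), Hsp90ab1 at 0.23 (0.09 to 0.14), Fas at -0.02 (-0.36 to -0.24) and Cavin2 at -0.15 (-0.37 to -0.30). In WT pair 2, Arc lay at 0.10 (-1.45 to -0.99), Amotl2 at -0.54 (-0.81 to -0.75), Pdgfra at -0.28 (-0.90 to -0.69), Upk3b at -0.26 (-1.11 to -0.83) and Il1rl1 at 0.47 (0.75 to 0.91). In WT pair 1, Enpp1 lay at 0.46 (0.16 to 0.27) and Klf4 at -0.93 (-0.50 to -0.33). In KO pair 2, F3 lay at -3.07 (-1.16 to -0.50) and Dhcr7 at -1.57 (-1.11 to -0.92). Of these genes, only Arc had a pair on the other side of 0.

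Among the 6 static libraries KO static 3 had 38.0 M exon reads, against 16.8 M to 24.7 M in the others. Among the 6 stretched libraries KO stretch 3 had 16.4% of its exon reads across junctions, against 28.1% to 29.8%. Without KO stretch 3 the list counts were 19 falls for cholesterol synthesis and 11 rises for heat shock chaperones.

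The stretch effect differed between genotypes, by the test of the difference itself, for Vegfc (KO minus WT 0.74) and Aldh1a3 (-1.15).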

How the results depend on the processing

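Leaving out 1 library or 1 library number gave 787 to 2063 called genes in the pooled fit (281 to 886 rises, 491 to 1177 falls), 372 to 1429 in WT, 310 to 779 in KO and 1 to 5 for the genotype difference. The pooled count was 787, 805 and 1179 without replicate 1, 2 and 3 of all groups. Without WT static 1 it was 1350, with 551 rises, and the WT count was 372. The WT count was 1429 without WT static 2, and the KO count 310 without KO static 2. Without the replicate block 449 genes were called (146 rises, 303 falls), with 110 in WT, 118 in KO, 0 for the genotype difference and 34 on intron reads. DESeq2 called 48 genes for the genotype difference and 13 for number 3. At an FDR under 0.01 the pooled fit called 910 genes (346 rises, 564 falls), and with at least 1.5-fold 264 (78 rises, 186 falls). Intron reads scaled by the exon factors gave 70. Other scalings, DESeq2, voom, other filters, unique reads, a removed length trend and group means gave 1764 to 2388 in the pooled fit. Of 186 called named genes 56 kept their call in all 28 alternatives, 0 reversed, 36 lost it without 1 library, 84 without the replicate block and 32 without number 3.

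Over the 12 libraries the median SE was 0.075 log2, and effects as small as that were not called. The smallest rise called was 0.11 and the smallest fall called was -0.12. The smallest effect detectable for a typical gene was not computed.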
